A study of Homo sapiens with 6 samples.

Results

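Immediate early genes of the EGR and AP-1 families, and IER2 of neither family, are described here across 3 treatment groups. Together they are called the EGR and AP-1 genes. The cells were KHM-5M, a human anaplastic thyroid cancer cell line. The 10 genes are EGR1, EGR2, EGR3, FOS, FOSB, FOSL1, JUN, JUNB, ATF3 and IER2, out of 17687 genes in the deposited table. They were selected on values measured in these same libraries, so their levels, their differences and the calls made for them in the fit over all genes are given as a description and support nothing. Of the 10, 8 passed the filter on low counts and stand among the 14005 genes tested, and EGR2 and EGR3 did not.

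The study measured polyadenylated RNA by short-read sequencing to ask how sodium selenite acts on thyroid cancer cells. The control group received PBS, the SS group received sodium selenite, and the SS+NAC group received sodium selenite together with NAC (N-acetylcysteine, a thiol antioxidant), with 2 libraries in each group. No group received NAC alone, so in the SS+NAC libraries the parts of selenite and of NAC cannot be told apart. The digit in the titles of the SS libraries has no unit and is not read as a dose, and the time between treatment and harvest of the sequenced cells is not stated in the labels.

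The expected counts of a library summed to 17645545 and 22016655 for control, to 23493415 and 23810056 for SS, and to 23682740 and 22617180 for SS+NAC. Between 16114 and 16503 genes had a count above 0 in a library. Within each group the 2 libraries differed beyond sampling noise, with a chi-square per degree of freedom across genes of 3.1 in control, 7.35 in SS and 12.2 in SS+NAC, so each library was kept as its own replicate. The comparisons SS against control and SS against SS+NAC share the SS libraries, and each of them shares a group with SS+NAC against control.

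Immediate early genes are switched on by growth factor, stress and cytokine signals without the need for new protein synthesis, and their messages are short-lived. Many of them carry binding sites for serum response factor, its ETS partners and CREB, which MAP kinases act on. EGR proteins are zinc finger transcription factors that bind GC-rich sites, whereas FOS and JUN proteins pair through leucine zippers to form the AP-1 transcription factor, which ATF proteins can join.

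Levels are given as CPM (counts scaled to library size and by TMM factors) when libraries are compared for 1 gene, and as TPM (transcripts in a library scaled to a fixed sum), which allow for transcript length, when genes are compared with each other. Between libraries, the TPM of a gene part from its CPM mainly by a scaling of the whole library. A TPM difference between libraries is therefore not read as an effect of that gene's length. A gene is called where edgeR's quasi-likelihood test gave a Benjamini-Hochberg adjusted p of at most 0.05 over the 14005 genes. Such a p measures the spread between these libraries of 1 cell line. In bulk RNA, fewer cells of a type and less RNA per cell cannot be told apart.

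The SS libraries differed from the others in a way that followed transcript length. Across the 14005 genes the log2 fold change fell with effective length, with a Spearman rho of −0.680 in SS against control, −0.637 in SS against SS+NAC and −0.038 in SS+NAC against control. These are descriptions across genes, which are not independent replicates. Every comparison was therefore also fitted with an offset that removes the trend with length, and values from that fit are given as values with the length offset. What causes the trend was not tested.

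Markers fixed for the cell type bear on the label. Of 9 thyroid markers 7 were in the table, with summed levels of 164 and 154.8 TPM in control, 147.4 and 131.2 in SS, and 155.6 and 162.9 in SS+NAC. PAX8, a thyroid transcription factor, made up most of each sum, with 133.8, 125.7, 116, 104, 126.8 and 131.0 TPM in control, SS and SS+NAC in turn, while TG stayed at or under 0.3 TPM and DIO1 was at 0 in 5 libraries. HHEX was called higher in SS than in both other groups and in neither with the length offset, under which PAX8 was called higher in SS than in SS+NAC, and 0 thyroid markers were called by edgeR in SS+NAC against control (0 at an unadjusted p under 0.05 and 0 by DESeq2, which called HHEX in SS against SS+NAC but not in SS against control). In CPM, PAX8 was at 278 and 273.6 in SS and at 261.6 and 252.5 in SS+NAC. Its TPM, which rescale each library as a whole, were lower in SS than in SS+NAC.

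The 8 epithelial and mesenchymal markers summed to between 9134.8 and 9816.7 TPM in a library. VIM, a mesenchymal filament, was the most abundant at 5743.5 to 6621.3 TPM, the epithelial adhesion gene CDH1 lay between 0.14 and 0.29 TPM, and the keratin KRT8 between 977.4 and 1397.8 TPM. In SS against control 3 of the 8 were called higher (KRT8, KRT18 and VIM) and 1 lower (CDH2), in SS against SS+NAC 3 were higher and 2 lower, and in SS+NAC against control 0 were called by edgeR (1 higher and 1 lower at an unadjusted p under 0.05, and 1 higher by DESeq2). With the length offset 0 were called in SS against control by edgeR (3 higher and 1 lower at an unadjusted p under 0.05 and by DESeq2 without the offset). Under it 3 were higher and 0 lower in SS against SS+NAC (3 higher and 2 lower at an unadjusted p under 0.05 and by DESeq2 without it), and FN1 was called higher in SS+NAC against control. Beside these markers, 18.6% of all tested genes were higher and 21.4% lower in SS against control (4.19% and 5.03% with the offset). The shares were 19.6% and 23.1% in SS against SS+NAC (7.04% and 7.38% with the offset), and 1.36% and 0.657% in SS+NAC against control.

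Of 12 markers of blood, endothelial and fibroblast cells 11 were in the table, summing to 231.4 and 229.4 TPM in control, 192 and 178.4 in SS, and 286.1 and 269.8 in SS+NAC. COL1A1 was the most abundant in each library, at 216, 215.2, 178.7, 167.5, 273.2 and 251.3 TPM in the same order, and the T cell marker CD3E was at 0 in 5 libraries. COL1A1 was called lower in SS than in SS+NAC (not with the length offset), and 0 of the 7 tested were called by edgeR in the other comparisons (at an unadjusted p under 0.05, 1 higher and 1 lower in SS against control and 1 higher in SS+NAC against control, and 0 in both by DESeq2). The part of these markers in the results was not tested.

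**Figure D1:**
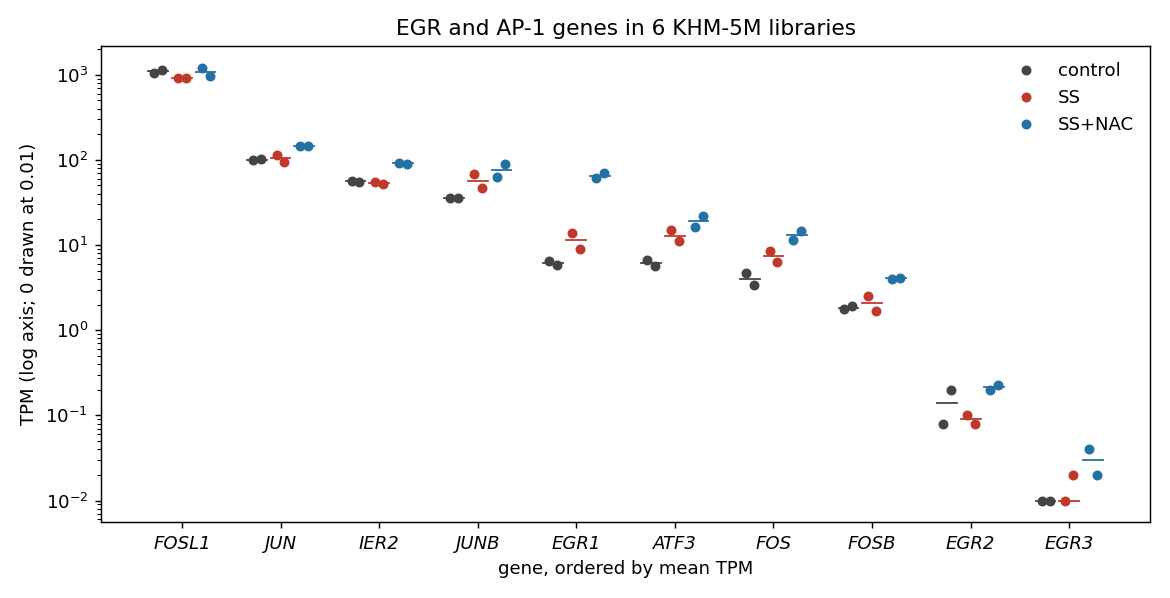
Level of each EGR and AP-1 gene in TPM on a log axis, ordered by its mean, with 1 point per library (black control, red SS, blue SS+NAC), a line at each group's mean and levels of 0 drawn at 0.01. FOSL1 lies between 906 and 1211 TPM and EGR3 between 0 and 0.04 TPM, and the EGR1 points of SS+NAC (61.2 and 69.5 TPM) stand above those of SS and control.

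EGR1 (NCBI gene 1958, chr5:138465490-138469315, plus strand, GRCh38) encodes the zinc finger factor that gives the EGR family its name. Its level was 10.3 and 9.41 CPM in control, 25.6 and 18.5 CPM in SS, and 97.6 and 103.7 CPM in SS+NAC. The groups did not overlap, and both SS+NAC libraries stood far above the rest. Group means were 9.85 ± 0.618, 22.1 ± 5.04 and 100.6 ± 4.33 CPM (SD, n = 2).

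The EGR1 level was 2.25-fold higher in SS than in control (log2 fold change 1.17, SE 0.15), 4.55-fold higher in SS+NAC than in SS (log2 fold change 2.19, SE 0.12) and 10.2-fold higher in SS+NAC than in control (log2 fold change 3.36, SE 0.14). The length offset gave EGR1 log2 fold changes of 1.22 for SS over control, −2.13 for SS over SS+NAC and 3.35 for SS+NAC over control. The SS libraries differed from each other, so that the log2 fold change of EGR1 over control was 0.91 without SS replicate 1 and 1.38 without SS replicate 2.

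EGR2 (NCBI gene 1959, chr10:62811996-62919900, minus strand) and EGR3 (NCBI gene 1960) encode close relatives that bind the same GC-rich sites. EGR2 had 2 and 6 expected counts in control, 4 and 3 in SS, and 7 and 7 in SS+NAC, or 0.08 to 0.23 TPM, so that its control libraries spanned those of SS and came within 1 count of those of SS+NAC. EGR3 had 0 and 0 counts in control, 0 and 1 in SS, and 2 and 1 in SS+NAC, all at or under the floor of 3 counts, so no fold is given. DESeq2, and edgeR without the filter on low counts, included EGR2 and EGR3 and called neither in any comparison. How large a difference these counts could show was not tested. EGR1 made up between 96.7% and 99.6% of the summed TPM of EGR1, EGR2 and EGR3 in a library, EGR4 left aside.

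The windows of 150 bases upstream of the EGR1 start and of the EGR2 start that lies farthest downstream are shown because both hold CArG boxes, the element that serum response factor binds. Capitals mark CArG boxes and the letters TGACG, the core of the CREB element, on either strand (CGTCA on the strand shown). EGR1 is read from chr5:138465329-138465478 on the plus strand and EGR2 from chr10:62816367-62816516 on the minus strand, both from RefSeq on GRCh38.p14.
EGR1: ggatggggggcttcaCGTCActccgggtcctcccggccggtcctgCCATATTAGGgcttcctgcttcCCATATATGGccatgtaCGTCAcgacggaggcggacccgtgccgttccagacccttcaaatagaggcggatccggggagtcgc
EGR2: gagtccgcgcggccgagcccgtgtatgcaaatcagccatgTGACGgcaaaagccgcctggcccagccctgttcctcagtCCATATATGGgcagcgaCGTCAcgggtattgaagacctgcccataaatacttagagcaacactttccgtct
In the EGR1 window a CArG box lies at −105 to −96 and another at −83 to −74 from the start, with TGACG on the other strand at −135 to −131 and −66 to −62. In the EGR2 window the CArG box lies at −71 to −62, with TGACG at −110 to −106 and, on the other strand, at −54 to −50. EGR1 and EGR2 thus share these letters while their levels differed, EGR2 staying at or under 0.23 TPM in each library.

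FOS (NCBI gene 2353, chr14:75278774-75282230, plus strand) encodes the founding FOS protein of AP-1. Its level was 5.11 and 3.75 CPM in control, 10.7 and 8.91 CPM in SS, and 12.5 and 14.8 CPM in SS+NAC. The groups did not overlap, with control lowest and SS+NAC highest. The means were 4.43 ± 0.961, 9.79 ± 1.25 and 13.7 ± 1.64 CPM (SD, n = 2). FOS was 2.23-fold higher in SS than in control (log2 fold change 1.16, SE 0.18), 1.39-fold higher in SS+NAC than in SS (log2 fold change 0.48, SE 0.15) and 3.11-fold higher in SS+NAC than in control (log2 fold change 1.64, SE 0.17).

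FOSB (NCBI gene 2354, chr19:45467995-45475179, plus strand) encodes another FOS protein that pairs with JUN proteins. Its level was 3.28 and 3.66 CPM in control, 5.54 and 4.16 CPM in SS, and 7.70 and 7.15 CPM in SS+NAC. On this scale the groups did not overlap. In TPM, which rescale each library as a whole, SS replicate 2 (1.69 TPM) lay below both control libraries (1.78 and 1.91 TPM). The length offset put the log2 fold change of FOSB in SS against control at 0.62, not called. The fitted log2 fold change was 0.48 (SE 0.19, not called) for SS over control, 0.61 (SE 0.17) for SS+NAC over SS and 1.09 (SE 0.18) for SS+NAC over control. The log2 fold change of FOSB in SS against SS+NAC was −0.47 with the length offset and not called.

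The FOSB gene lies within the span of ERCC1, a DNA repair gene on the opposite strand. The gene spans, introns included, share 7185 bases. The library preparation as described does not keep the strand, so reads cannot be told apart where exons of the 2 genes overlap. How many exon bases overlap was not counted. ERCC1 had 121 and 129 CPM in control, 157 and 172 CPM in SS, and 137 and 122 CPM in SS+NAC, and was called higher in SS than in both other groups. FOSB was highest in SS+NAC, where ERCC1 was close to its control level. The part of ERCC1 reads in the FOSB values was not tested. GENCODE also places AC011446.2 opposite IER2 and AC055854.1 opposite EGR3, and the table has no values for either.

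FOSL1 (NCBI gene 8061, chr11:65892049-65900573, minus strand) encodes FRA-1, a FOS protein that lacks the strong activation domain of FOS and accumulates in many carcinomas. Its level was 891 and 979.9 CPM in control, 889 and 993 CPM in SS, and 1022 and 776 CPM in SS+NAC. In CPM the 3 groups overlapped, and the 2 SS+NAC libraries were farther apart than any other pair. In TPM, which rescale each library as a whole, the SS libraries (906 and 925 TPM) lay below those of control (1058 and 1134 TPM) and of SS+NAC (1211 and 967 TPM). Nothing about FOSL1 is read from that order. The means were 935 ± 62.9, 941 ± 73.6 and 899 ± 174 CPM (SD, n = 2). The log2 fold changes of FOSL1 were 0.01 (SE 0.12) for SS over control, 0.07 for SS over SS+NAC and −0.06 for SS+NAC over control, with 0 of 3 called by edgeR or DESeq2. The length offset put the log2 fold change of FOSL1 at −0.25 in SS against control and turned that of SS against SS+NAC to −0.17, neither of them called. With a library left out the values of FOSL1 ran from −0.08 to 0.11 in SS against control, from −0.12 to 0.28 in SS against SS+NAC and from −0.27 to 0.13 in SS+NAC against control, so that no direction held.

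JUN (NCBI gene 3725, chr1:58780788-58784327, minus strand) encodes the JUN protein that forms the most studied AP-1 dimers with FOS. Its level was 167 and 174 CPM in control, 227 and 206 CPM in SS, and 243 and 232 CPM in SS+NAC. Both treated groups lay above control on this scale. In TPM, which rescale each library as a whole, the SS libraries (115 and 95.2 TPM) overlapped control (99.5 and 101 TPM). The length offset put the log2 fold change of JUN in SS against control at 0.43. JUN was 1.27-fold higher in SS than in control (log2 fold change 0.34, SE 0.08) and 1.39-fold higher in SS+NAC than in control (0.48 on the log2 scale, SE 0.08), and its log2 fold change of −0.13 in SS against SS+NAC was not called.

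JUNB (NCBI gene 3726, chr19:12791496-12793315, plus strand) encodes a JUN protein that activates fewer promoters than JUN and can oppose it. Its level was 32.1 and 33.3 CPM in control, 72 and 54.3 CPM in SS, and 57.1 and 77.0 CPM in SS+NAC. Both treated groups lay above control, and they overlapped each other. JUNB was 1.93-fold higher in SS than in control (log2 fold change 0.95, SE 0.15; 0.73 with the length offset) and 2.05-fold higher in SS+NAC than in control (1.03, SE 0.15), with a log2 fold change of −0.09 in SS against SS+NAC that was not called and ran from −0.305 to 0.144 with a library left out, turning positive without SS replicate 2 or without SS+NAC replicate 2. JUNB lies within HOOK2 on the opposite strand, and HOOK2, at 7.83 to 9.67 CPM, was called in 0 of the 3 comparisons by edgeR.

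The windows of 150 bases upstream of FOSB and JUNB are shown because both of these AP-1 genes hold a TATA motif close to the start together with TGACG. Capitals mark TATAAA and TGACG. FOSB is read from chr19:45467846-45467995 and JUNB from chr19:12791336-12791485, both on the plus strand of GRCh38.p14 from RefSeq.
FOSB: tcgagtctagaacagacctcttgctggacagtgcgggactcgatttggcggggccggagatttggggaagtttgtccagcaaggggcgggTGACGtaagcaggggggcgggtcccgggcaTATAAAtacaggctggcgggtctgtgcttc
JUNB: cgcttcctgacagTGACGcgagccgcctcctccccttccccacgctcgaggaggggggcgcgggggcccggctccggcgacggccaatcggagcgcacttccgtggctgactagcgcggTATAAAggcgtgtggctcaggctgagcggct
FOSB has TGACG at −60 to −56 and TATAAA at −30 to −25 from the start, and JUNB has TGACG at −137 to −133 and TATAAA at −31 to −26.

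ATF3 (NCBI gene 467, chr1:212565334-212620777, plus strand) encodes a stress-induced factor of the ATF family that pairs with JUN proteins and often represses. Its level was 7.34 and 6.56 CPM in control, 19.7 and 15.6 CPM in SS, and 18.6 and 23.8 CPM in SS+NAC. Both treated groups stood above control and overlapped each other in CPM. In TPM, which rescale each library as a whole, SS (14.9 and 11.02 TPM) lay below SS+NAC (16.2 and 22.1 TPM). Nothing about ATF3 is read from that order. ATF3 was 2.54-fold higher in SS than in control (log2 fold change 1.35, SE 0.16) and 3.05-fold higher in SS+NAC than in control (log2 fold change 1.61, SE 0.16). Its log2 fold change in SS against SS+NAC was −0.26 (−0.37 with the length offset) and called in neither fit.

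IER2 (NCBI gene 9592, chr19:13150415-13154908, plus strand) encodes a nuclear protein of the immediate early response that belongs to neither family. Its level was 58.9 and 58.2 CPM in control, 66.1 and 68.2 CPM in SS, and 95.0 and 86.8 CPM in SS+NAC. The groups did not overlap in CPM. In TPM, which rescale each library as a whole, the SS libraries (54.8 and 51.4 TPM) lay below control (57.1 and 55.3 TPM). Nothing about IER2 is read from that order. The fitted log2 fold change was 0.20 (SE 0.08; 0.03 with the length offset, called in neither fit) for SS over control, 0.44 (SE 0.07) for SS+NAC over SS and 0.64 (SE 0.08) for SS+NAC over control.

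Ordered by mean TPM over the 6 libraries, the levels ran from FOSL1 (1034 TPM, place 145 among all 17687 genes) through JUN (117), IER2 (66.7), JUNB (56.2), EGR1 (27.6), ATF3 (12.8), FOS (8.14), FOSB (2.67) and EGR2 (0.148) to EGR3 (0.0133). FOSL1 stood 8.84-fold above JUN, the next gene in that order. Neighbours whose libraries overlapped in TPM were EGR1 and ATF3 in control and in SS, IER2 and JUNB in SS and in SS+NAC, and JUNB and EGR1 in SS+NAC. EGR1 thus took a place beside ATF3 in control and beside JUNB in SS+NAC.

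Within the FOS family, FOSL1 made up 94.2% and 94.6% of the summed TPM in control, 95.4% and 96.2% in SS, and 94.9% and 93.0% in SS+NAC. The FOS gene itself made up 0.419% and 0.282% in control, 0.884% and 0.663% in SS, and 0.898% and 1.40% in SS+NAC. FOSL2, which encodes FRA-2 and is not among the 10 genes, had 59.0 and 59.8 TPM in control, 32.6 and 28.98 TPM in SS, and 49.5 and 54.3 TPM in SS+NAC. The message of the family thus came almost wholly from FOSL1 in each library. TPM do not remove the trend of the SS libraries with length. FOSL2 has an effective length of 6078 and was not called in SS against control with the length offset. Differences in share between groups are therefore not read as changes of 1 gene against another.

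The JUN family was more evenly divided. JUN made up 44.3% and 43.5% of its summed TPM in control, 38.3% and 38.2% in SS, and 47.2% and 43.8% in SS+NAC. JUNB made up 15.7% and 15.4%, then 22.4% and 18.6%, then 20.5% and 26.8% in the same order of groups. JUND, the JUN protein gene that is expressed most steadily across cell states, made up the rest, from 29.5% in SS+NAC replicate 2 to 43.2% in SS replicate 2. JUN is longer (effective length 3352) than JUNB (1815) and JUND (1965). The lower JUN share in SS is therefore not read as a fall of JUN. With the length offset the log2 fold change of JUN in SS against control was 0.43.

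**Figure D2:**
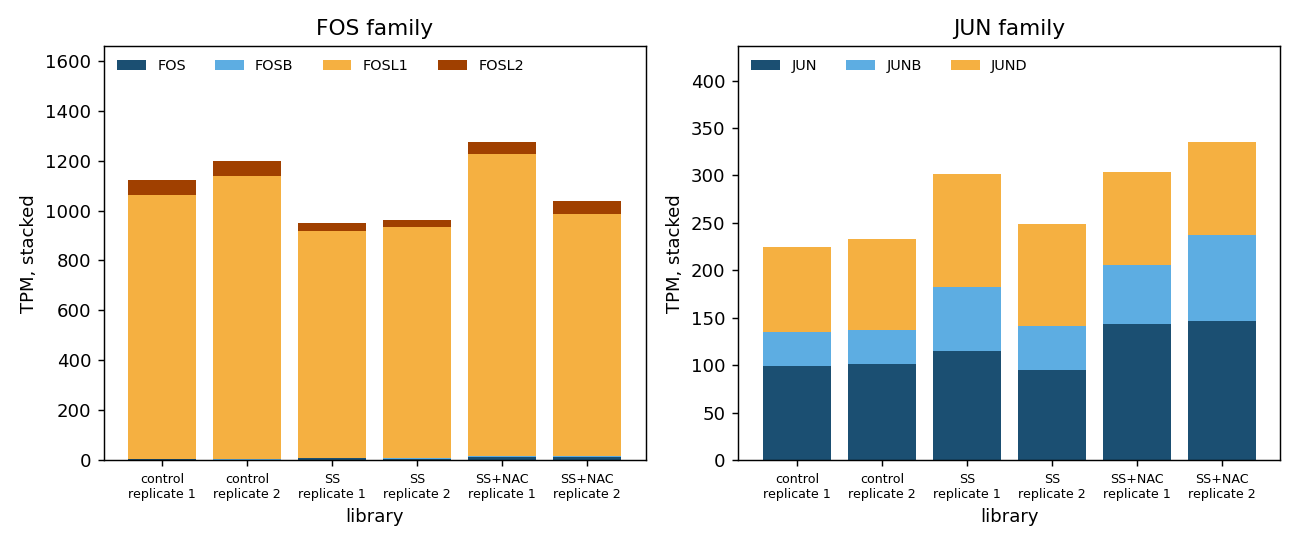
Stacked TPM of FOS, FOSB, FOSL1 and FOSL2 (left) and of JUN, JUNB and JUND (right) in each of the 6 libraries. FOSL1 fills most of each bar of the FOS family, whose height runs from 949.8 to 1276 TPM, and the JUN family bars run from 225 TPM in control replicate 1 to 336 TPM in SS+NAC replicate 2. TPM do not remove the trend of the SS libraries with length.

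The comparison of SS with control asks what selenite did to these genes. Of the 8 genes that passed the filter, EGR1, FOS, JUN, JUNB and ATF3 were called higher in SS, between 1.27-fold (JUN) and 2.54-fold (ATF3), FOSB, FOSL1 and IER2 were not called, and 0 were called lower by edgeR or DESeq2, or at an unadjusted p under 0.05. In the same comparison 18.6% of all tested genes were called higher and 21.4% lower, and since the genes were selected on these values nothing is read from their count. The same 5 were called higher with the length offset, against 4.19% of all genes higher and 5.03% lower. At an unadjusted p under 0.05 the fit with the offset had 6 of the genes higher and 1 lower. JUN was not called without control replicate 1 or without SS replicate 1, which left 4 called in each case. FOSB and IER2 were called once either SS+NAC library was left out, which gave 7 called, and FOSB also without SS replicate 2, with 6 called. With at least 10 counts required in every library both were called as well, again 7 in all, and IER2 was called when only the compared libraries were fitted, with 6 called. The number of all genes called, 5609, was 3118 without control replicate 1, 3628 without control replicate 2 and 3164 without SS replicate 2.

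The comparison of SS with SS+NAC asks how the levels stood when NAC was present with selenite. EGR1, FOS, FOSB and IER2 were called lower in SS than in SS+NAC, by 4.55-fold for EGR1 and by 1.35-fold to 1.53-fold for the others, while FOSL1, JUN, JUNB and ATF3 were not called and 0 were called higher by edgeR or DESeq2, or at an unadjusted p under 0.05. Among all tested genes 19.6% were called higher in SS and 23.1% lower. EGR1, FOS and IER2, 3 in all, were called lower with the length offset, against 7.04% of all genes higher and 7.38% lower. Without SS replicate 2 the calls of FOS and FOSB were lost and 2 were left, without SS+NAC replicate 2 the call of FOS was lost and 3 were left, and without SS+NAC replicate 1 ATF3 was also called lower and FOSL1 higher. DESeq2 called 2 lower, EGR1 and IER2. The number of all genes called, 5985, was 3250 without SS replicate 2.

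The comparison of SS+NAC with control takes selenite and NAC together. EGR1, FOS, FOSB, JUN, JUNB, ATF3 and IER2 were called higher in SS+NAC, from 1.39-fold for JUN to 10.2-fold for EGR1, FOSL1 was not called, and 0 were called lower by edgeR or DESeq2, or at an unadjusted p under 0.05. Among all tested genes 1.36% were called higher and 0.657% lower. JUN lost its call without either control library, and FOSB without control replicate 1, which left 5 called without control replicate 1 and 6 without control replicate 2. The number of all genes called, 282, was 98 without control replicate 1, 99 without control replicate 2 and 1086 without SS+NAC replicate 1.

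Side by side in CPM, JUNB and ATF3 had treated groups that overlapped each other above control, EGR1, FOS, FOSB, JUN and IER2 had both SS+NAC libraries above both SS libraries, and FOSL1 had overlapping groups in CPM. How many of all tested genes separate in this way was not counted. Nothing is therefore read from these orders, or from the overlaps given for each gene above. The median log2 fold change of the 8 genes was 0.71 for SS over control, −0.35 for SS over SS+NAC and 1.06 for SS+NAC over control, beside medians over all tested genes of 0.003, −0.034 and −0.002.

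**Figure D3:**
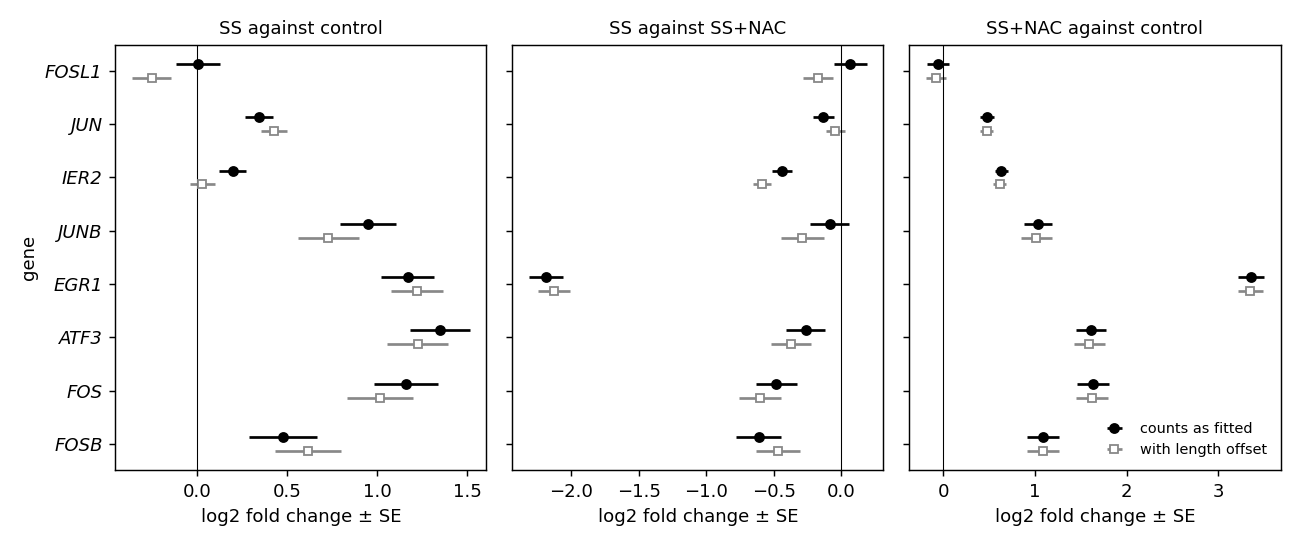
Log2 fold change ± SE of the 8 EGR and AP-1 genes that passed the filter in each of the 3 comparisons, as fitted to the counts (filled circles) and with the length offset (open squares). EGR1 stands apart at 3.36 in SS+NAC against control, and FOSL1 lies close to 0 as fitted and at −0.25 with the offset in SS against control.

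The lists that follow were fixed by known role, but with earlier results of these data known. The genes named from them are mostly those with the largest called changes. Their counts, folds and p-values are therefore given as a description. Among 14 other EGR, AP-1 and partner genes, 13 were tested. In SS against control 3 were called higher and 4 lower (median log2 fold change 0.08), in SS against SS+NAC 4 were higher and 6 lower (median 0.13), and in SS+NAC against control 2 were higher and 0 lower by edgeR (3 higher and 1 lower at an unadjusted p under 0.05, and 2 higher by DESeq2). Of all tested genes 18.6% were higher and 21.4% lower in SS against control, 19.6% and 23.1% in SS against SS+NAC, and 1.36% and 0.657% in SS+NAC against control. The length offset left 2 higher and 2 lower in SS against control, and 2 higher and 4 lower in SS against SS+NAC. Over all tested genes it left 4.19% higher and 5.03% lower in the former, and 7.04% and 7.38% in the latter.

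JUND was at 88.7 and 96.5 CPM in control, 136 and 137 CPM in SS, and 97.2 and 91.6 CPM in SS+NAC. It was called higher in SS than in control (log2 fold change 0.56, SE 0.08, edgeR adjusted p = 0.000466) and than in SS+NAC (0.53, SE 0.08, adjusted p = 0.000566). FOSL2 was at 177 and 181 CPM in control, 122 and 119 CPM in SS, and 149 and 155 CPM in SS+NAC. Its level fell in SS against control (log2 fold change −0.57, SE 0.07, edgeR adjusted p = 0.000325), and with the length offset it was not called (−0.19, adjusted p = 0.0906). JUND was called with the length offset too, over control (0.37, adjusted p = 0.0106) and over SS+NAC (0.36, edgeR adjusted p = 0.00944).

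ATF2, a partner of JUN, was lower in SS than in control (log2 fold change −0.54, SE 0.08, edgeR adjusted p = 0.000897). BATF3, a zipper protein that pairs with JUN proteins, was higher in SS than in control (log2 fold change 0.55, edgeR adjusted p = 0.00697) and than in SS+NAC (0.54, adjusted p = 0.00624), but was called in neither with the length offset (adjusted p = 0.594 and 0.58). BATF3 also lost its call over control without control replicate 1 (adjusted p = 0.0607) and in both comparisons without SS replicate 2 (adjusted p = 0.0795 and 0.0781). In SS+NAC the small MAF gene MAFG was at 88.3 and 89.0 CPM against 56.7 and 60.2 CPM in control and 57.9 and 55.1 CPM in SS, higher than in control by a log2 fold change of 0.60 (edgeR adjusted p = 0.00204) and than in SS by 0.65 (adjusted p = 0.000258). JDP2, a repressor of AP-1, was at 53.7 and 52.9 CPM in SS+NAC against 37.6 and 37.4 CPM in control (log2 fold change 0.51, edgeR adjusted p = 0.0135). The call of JDP2 was lost without control replicate 1 (adjusted p = 0.111) or control replicate 2 (adjusted p = 0.117), which left 1 gene of the list called in SS+NAC against control.

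NAB1 and NAB2 encode corepressors that bind EGR proteins. NAB1 was at 64.1 and 59.4 CPM in control, 50.3 and 46.6 CPM in SS, and 64.6 and 71.9 CPM in SS+NAC. It was lower in SS than in control (log2 fold change −0.35, edgeR adjusted p = 0.00863) and than in SS+NAC (−0.50, adjusted p = 0.0013). NAB1 was not called in SS against control with the length offset (−0.15, edgeR adjusted p = 0.252), nor without control replicate 1 (adjusted p = 0.0902) or SS replicate 2 (adjusted p = 0.0787). NAB2, which EGR1 is known to induce, was at 25.6 and 23.6 CPM in control, 27.0 and 28.6 CPM in SS, and 21.8 and 22.5 CPM in SS+NAC. It was called in SS against SS+NAC (log2 fold change 0.33, edgeR adjusted p = 0.0113, and a log2 fold change of 0.285 without SS replicate 2). NAB2 was not called in SS+NAC against control (−0.15, edgeR adjusted p = 0.431). Whether EGR1 acted on NAB2 in these cells was not tested.

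Of 46 other immediate early genes, all tested, 13 were called higher and 5 lower in SS against control (median log2 fold change 0.23), 13 higher and 14 lower in SS against SS+NAC (median −0.06), and 11 higher and 3 lower in SS+NAC against control (median 0.26). Under the length offset 8 were higher and 2 lower in SS against control, and 10 higher and 10 lower in SS against SS+NAC. That fit called 4.19% of all tested genes higher and 5.03% lower in SS against control, and 7.04% and 7.38% in SS against SS+NAC. The number called was 10 without control replicate 1 in SS against control, 17 without SS replicate 1 and 15 without SS replicate 2 in SS against SS+NAC, and 8 without control replicate 1 and 4 without control replicate 2 in SS+NAC against control. Over all tested genes 18.6% were higher and 21.4% lower in SS against control, 19.6% and 23.1% in SS against SS+NAC, and 1.36% and 0.657% in SS+NAC against control.

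DUSP1, a phosphatase that switches off MAP kinases, was at 46.6 and 47.0 CPM in control, 100.4 and 89.8 CPM in SS, and 69.5 and 78.5 CPM in SS+NAC (SS over control log2 fold change 1.02, SE 0.09, edgeR adjusted p = 9.43e-05). ZFP36, which speeds the decay of short-lived messages, was at 16.1 and 15.1 CPM in control, 33.8 and 25.2 CPM in SS, and 19.5 and 22.7 CPM in SS+NAC (log2 fold change 0.92, SE 0.14, adjusted p = 0.000791). CEBPD, a factor of inflammatory and stress responses, was at 43.4 and 32.2 CPM in control, 145 and 87.7 CPM in SS, and 83.4 and 164 CPM in SS+NAC. CEBPD was higher than control in SS (log2 fold change 1.63, SE 0.30, edgeR adjusted p = 0.00216) and in SS+NAC (1.72, SE 0.30, adjusted p = 0.0177), the latter not called without control replicate 2 (adjusted p = 0.0618).

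SERTAD1, a regulator of the cell cycle, was higher in SS than in control (log2 fold change 0.81, edgeR adjusted p = 0.000971) and than in SS+NAC (0.94, adjusted p = 0.000478), and with the length offset not called over control (0.43, adjusted p = 0.066). ID1 and ID3 encode proteins that block helix-loop-helix factors. ID1 was at 49.9 and 55.0 CPM in control, 40.8 and 49.6 CPM in SS, and 20.7 and 19.3 CPM in SS+NAC, where its level fell against control (log2 fold change −1.39, SE 0.11, edgeR adjusted p = 5.94e-05), and ID3 likewise (−1.04, SE 0.14, adjusted p = 0.00315). Both were called higher in SS than in SS+NAC, ID3 by a log2 fold change of 1.31 (edgeR adjusted p = 0.000193) and ID1 by 1.18 (adjusted p = 0.000124). They thus stood lowest where EGR1 stood highest.

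DUSP4, another MAP kinase phosphatase, was at 3.45 and 3.71 CPM in control, 3.36 and 4.66 CPM in SS, and 6.92 and 6.36 CPM in SS+NAC. DUSP4 was higher in SS+NAC than in SS (log2 fold change 0.73, edgeR adjusted p = 0.00763) and than in control (0.89, adjusted p = 0.0372). The former call was lost with the length offset (adjusted p = 0.177) and without SS replicate 1 (0.0603), and the latter without control replicate 1 (0.206) or control replicate 2 (0.158) and by DESeq2 (0.0816), each an adjusted p of DUSP4.

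The factors that act on immediate early promoters were listed with serum response factor (SRF). Of the 9 genes, all tested, 0 were called higher and 5 lower in SS against control (median log2 fold change −0.28), 0 higher and 4 lower in SS against SS+NAC (median −0.17), and 0 were called in SS+NAC against control by edgeR (1 lower at an unadjusted p under 0.05 and 0 by DESeq2, which also called 0 higher in the other comparisons, with 1 higher in SS against SS+NAC at an unadjusted p under 0.05). Under the length offset 1 was called lower in SS against control and 0 in SS against SS+NAC by edgeR (2 lower and 0 at an unadjusted p under 0.05, while DESeq2, fitted without the offset, called 5 and 4 lower). Over all tested genes the number called also fell with the offset, from 5609 to 1292 in SS against control and from 5985 to 2019 in SS against SS+NAC. As shares of all tested genes, 18.6% were higher and 21.4% lower in SS against control (4.19% and 5.03% with the offset). In SS against SS+NAC the shares were 19.6% and 23.1% (7.04% and 7.38% with the offset), and in SS+NAC against control 1.36% and 0.657%.

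SRF was at 117 and 127 CPM in control, 98.6 and 102 CPM in SS, and 116 and 111 CPM in SS+NAC. Its level in SS against control (log2 fold change −0.28, edgeR adjusted p = 0.0143) was not called with the length offset (−0.12, adjusted p = 0.327), nor without control replicate 2 (adjusted p = 0.238), SS replicate 1 (0.0812) or SS replicate 2 (0.0533). MRTFB, a coactivator of SRF, was at 27.1 and 26.6 CPM in control, 16.6 and 15.9 CPM in SS, and 24.4 and 28.0 CPM in SS+NAC (SS over control log2 fold change −0.73, SE 0.10, edgeR adjusted p = 0.000434, and 0.173 with the length offset; SS over SS+NAC −0.69, adjusted p = 0.000515, and 0.165 with it).

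Of the ETS partners, ELK3 was lower in SS than in control (log2 fold change −0.51, edgeR adjusted p = 0.000758) and was called with the length offset too (−0.30, adjusted p = 0.0255). The call of ELK3 in SS against SS+NAC (−0.28, edgeR adjusted p = 0.013) was lost with the offset (0.466) and without SS replicate 2 (0.0794). ELK4 was lower in SS than in control (log2 fold change −0.44, edgeR adjusted p = 0.00251), with the opposite sign and no call under the offset (0.10, adjusted p = 0.471), and lower than in SS+NAC (−0.55, adjusted p = 0.000734, and 0.774 with the offset). CREB1, the factor that binds the CREB element, was lower in SS than in control (log2 fold change −0.54, edgeR adjusted p = 0.0045) and than in SS+NAC (−0.53, adjusted p = 0.00421), and was called in neither with the offset (adjusted p = 0.519 and 0.42). The latter log2 fold change of CREB1 was −0.34 without SS+NAC replicate 2, still called.

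Of 22 MAP kinase genes upstream of these factors, all tested, 2 were called higher and 7 lower in SS against control (median log2 fold change −0.06), 5 higher and 6 lower in SS against SS+NAC (median 0.10), and 0 in SS+NAC against control by edgeR (3 lower at an unadjusted p under 0.05 and 0 by DESeq2). With the length offset 1 was higher and 1 lower in SS against control, and 2 higher and 0 lower in SS against SS+NAC by edgeR (3 higher and 1 lower at an unadjusted p under 0.05, and 5 higher and 3 lower by DESeq2 without the offset). The shares of all tested genes were 18.6% higher and 21.4% lower in SS against control, and 19.6% and 23.1% in SS against SS+NAC. They were 1.36% and 0.657% in SS+NAC against control. Under the offset the shares were 4.19% and 5.03% in SS against control, and 7.04% and 7.38% in SS against SS+NAC. Without control replicate 1, and likewise without SS replicate 2, 4 were called in SS against control. For SS against SS+NAC 7 were called without control replicate 1, 6 without SS replicate 1, 1 without SS replicate 2 and 4 without SS+NAC replicate 2, and in SS+NAC against control 2 were called without SS+NAC replicate 1. These are message levels, and the activity of a MAP kinase is set by phosphorylation, which RNA counts do not show.

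MAPK3, which encodes a kinase that phosphorylates the ETS partners, was at 73.4 and 75.7 CPM in control, 91.1 and 94.5 CPM in SS, and 81.9 and 74.0 CPM in SS+NAC. MAPK3 was higher in SS than in control (log2 fold change 0.32, edgeR adjusted p = 0.00845), but was not called with the length offset (0.11, adjusted p = 0.392), without control replicate 1 (0.0923) or without SS replicate 2 (0.0679). Against SS+NAC, MAPK3 had a log2 fold change of 0.25 (edgeR adjusted p = 0.0221, and 0.58 with the offset), and the adjusted p was 0.0536 without control replicate 1, 0.055 without SS replicate 1, 0.133 without SS replicate 2 and 0.115 without SS+NAC replicate 2. MAPK3 was not called in SS+NAC against control (0.06, edgeR adjusted p = 0.727).

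MAP3K1, which activates the JNK branch, was at 15.7 and 14.3 CPM in control, 11.8 and 9.36 CPM in SS, and 15.8 and 17.9 CPM in SS+NAC. MAP3K1 was lower in SS than in control (log2 fold change −0.50, edgeR adjusted p = 0.0125, and 0.764 with the length offset, 0.0841 without control replicate 1 and 0.11 without SS replicate 2) and than in SS+NAC (−0.67, adjusted p = 0.00239, and 0.167 with the offset). RPS6KA3, a ribosomal S6 kinase that acts below the MAP kinases, was lower in SS than in control (log2 fold change −0.46, edgeR adjusted p = 0.0024) and than in SS+NAC (−0.39, adjusted p = 0.00534, and 0.0513 without SS replicate 2), with offset values of −0.03 and 0.02 that were not called (adjusted p = 0.836 and 0.871).

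MAP2K4, which activates JNK, was lower in SS than in control (log2 fold change −0.37, edgeR adjusted p = 0.00554, and 0.111 with the offset and 0.0866 without control replicate 2). RPS6KA5 was lower in SS than in SS+NAC (−0.42, edgeR adjusted p = 0.0335, and 0.573 with the offset) and MAP2K2 higher (0.33, adjusted p = 0.0159, and 0.411 with the offset). The call of MAP2K2 was lost without SS replicate 2 (adjusted p = 0.13) or SS+NAC replicate 2 (0.0761). That of RPS6KA5 was lost without control replicate 1 (adjusted p = 0.0525), control replicate 2 (0.0685), SS replicate 1 (0.0577), SS replicate 2 (0.173) or SS+NAC replicate 2 (0.169), and by DESeq2 (0.166).

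Genes known as targets of AP-1 or EGR1 were listed without regard to cell type, and 26 of 30 were tested. In SS against control 12 were called higher and 3 lower (median log2 fold change 0.30), in SS against SS+NAC 5 were higher and 6 lower (median −0.04), and in SS+NAC against control 6 were higher and 0 lower by edgeR (median 0.19; 12 higher and 4 lower at an unadjusted p under 0.05, and 6 higher and 1 lower by DESeq2). With the length offset 5 were higher and 0 lower in SS against control by edgeR (13 higher and 1 lower at an unadjusted p under 0.05, and 9 higher and 4 lower by DESeq2 without the offset), 4 higher and 4 lower in SS against SS+NAC, and 6 higher and 1 lower (PLAU) in SS+NAC against control. For comparison, 18.6% of all tested genes were higher and 21.4% lower in SS against control, 19.6% and 23.1% in SS against SS+NAC, and 1.36% and 0.657% in SS+NAC against control. Shares with the offset were 4.19% and 5.03% in SS against control, and 7.04% and 7.38% in SS against SS+NAC. In SS+NAC against control the offset gave 189 genes higher and 93 lower among the 14005. Of these targets 9 were called in SS against control without control replicate 1 and 7 without SS replicate 1, in SS against SS+NAC 7 without SS replicate 2 and 7 without SS+NAC replicate 2, and in SS+NAC against control 3 without control replicate 1, 2 without control replicate 2 and 10 without SS+NAC replicate 1.

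CXCL8 and IL6 had the largest log2 fold changes among the targets called in SS against control, and libraries far apart within a group. CXCL8, the neutrophil chemokine, was at 19.3 and 11.8 CPM in control, 72.3 and 33.1 CPM in SS, and 65.6 and 197 CPM in SS+NAC. SS+NAC replicate 2 carried most of the mean of its group, so the size of each CXCL8 change that involves SS+NAC rests largely on that library. It was higher in SS+NAC than in control (log2 fold change 3.09, SE 0.50, edgeR adjusted p = 0.0122) and in SS than in control (1.78, SE 0.51, adjusted p = 0.0179), the second not called with the length offset (1.51, adjusted p = 0.114), without control replicate 2 (1.48, adjusted p = 0.0555), without SS replicate 1 (1.10, adjusted p = 0.154) or by DESeq2 (1.76, adjusted p = 0.0616). The CXCL8 libraries of SS and SS+NAC overlapped (log2 fold change −1.31, edgeR adjusted p = 0.0355), and was −1.57 with the offset (adjusted p = 0.0502). It was −0.86 without SS replicate 2 (adjusted p = 0.241), −0.32 without SS+NAC replicate 2 (adjusted p = 0.371) and −1.99 without SS replicate 1, and DESeq2 did not call it (adjusted p = 0.182).

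IL6, an inflammatory cytokine, was at 2.39 and 2.67 CPM in control, 14.4 and 5.12 CPM in SS, and 7.45 and 22.5 CPM in SS+NAC. IL6 was higher in SS than in control (log2 fold change 1.95, SE 0.61, edgeR adjusted p = 0.0259), but not called with the length offset (1.60, adjusted p = 0.159), without control replicate 1 (1.87, adjusted p = 0.0746), without SS replicate 1 (1.01, adjusted p = 0.256) or by DESeq2 (1.95, adjusted p = 0.0541). IL1B was higher in SS than in control (log2 fold change 0.99, SE 0.29, edgeR adjusted p = 0.0198), and not called with the offset (0.69, adjusted p = 0.195), without control replicate 2 (0.68, adjusted p = 0.102), without SS replicate 1 (0.63, adjusted p = 0.165) or by DESeq2 (0.975, adjusted p = 0.0801). MMP9, a matrix protease, was higher in SS than in control (log2 fold change 1.24, SE 0.36, edgeR adjusted p = 0.0164), and kept a log2 fold change of 1.14 with the offset (adjusted p = 0.0716), 1.31 without control replicate 1 (adjusted p = 0.0735), 1.19 without control replicate 2 (adjusted p = 0.104) and 1.05 without SS replicate 1 (adjusted p = 0.104), none of them called. These 4 cytokine and protease genes thus had calls in SS against control that 1 library could end.

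HMOX1, which breaks down haem and answers to oxidative stress, was at 17.4 and 15.7 CPM in control, 22.8 and 21.8 CPM in SS, and 29.1 and 30.7 CPM in SS+NAC (SS+NAC over control log2 fold change 0.85, SE 0.09, edgeR adjusted p = 0.000789). GCLC, of glutathione synthesis, was at 42.7 and 38.7 CPM in control, 40.5 and 38.5 CPM in SS, and 58.1 and 78.3 CPM in SS+NAC (SS+NAC over SS log2 fold change 0.79, SE 0.12, adjusted p = 0.00086). CDKN1A, the cell cycle inhibitor p21, was at 14.2 and 14.5 CPM in control, 31.7 and 24.9 CPM in SS, and 17.2 and 18.0 CPM in SS+NAC (SS over SS+NAC log2 fold change 0.68, SE 0.12, adjusted p = 0.00126). HMOX1 and GCLC were thus highest in SS+NAC, and CDKN1A was highest in SS. Whether AP-1 or EGR1 acted on these genes here was not tested.

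FGF2, a growth factor, was higher in SS+NAC than in SS (log2 fold change 0.82, SE 0.09, edgeR adjusted p = 0.000258). PTGS2, the inducible cyclooxygenase, was at 2.45 and 2.40 CPM in control, 5.36 and 3.84 CPM in SS, and 4.597 and 6.65 CPM in SS+NAC (SS+NAC over control log2 fold change 1.21, edgeR adjusted p = 0.0312). PTGS2 was not called without control replicate 1 (0.128), control replicate 2 (0.145) or SS+NAC replicate 2 (0.0713). ICAM1, an adhesion molecule, was higher in SS+NAC than in control (log2 fold change 0.84, edgeR adjusted p = 0.0281), with adjusted p of 0.0581 without control replicate 1 and 0.142 without control replicate 2.

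ATF3 is also part of the stress response led by ATF4, and 10 genes of that response were listed, all tested. Of the 10, 6 were called higher and 1 lower in SS against control (median log2 fold change 0.35), in SS against SS+NAC 0 higher and 7 lower by edgeR (median −0.66; 8 lower at an unadjusted p under 0.05, and 1 higher and 7 lower by DESeq2), and in SS+NAC against control 8 higher and 0 lower by edgeR (median 0.89; 10 higher at an unadjusted p under 0.05, and 9 higher by DESeq2). With the length offset 3 were higher and 0 lower in SS against control by edgeR (5 higher at an unadjusted p under 0.05, and 6 higher by DESeq2 without it), and 0 higher and 8 lower in SS against SS+NAC (9 lower at an unadjusted p under 0.05, and 1 higher and 7 lower by DESeq2 without it). The same comparisons without the offset called 18.6%, 19.6% and 1.36% of all tested genes higher and 21.4%, 23.1% and 0.657% lower. Fitted with it, SS against control had 4.19% of all tested genes higher and 5.03% lower, and SS against SS+NAC 7.04% and 7.38%.

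DDIT4, an inhibitor of mTOR signalling, was at 14.1 and 14.5 CPM in control, 35.6 and 24.3 CPM in SS, and 65.2 and 83.7 CPM in SS+NAC. It was higher in SS than in control (log2 fold change 1.07, SE 0.18, edgeR adjusted p = 0.00132), in SS+NAC than in SS (1.31, SE 0.16, adjusted p = 0.000332) and in SS+NAC than in control (2.38, SE 0.17, adjusted p = 4.19e-05). CHAC1, which degrades glutathione, was at 8.28 and 8.19 CPM in control, 12.8 and 13.2 CPM in SS, and 28.5 and 28.8 CPM in SS+NAC (SS+NAC over control log2 fold change 1.80, SE 0.10, edgeR adjusted p = 3.02e-06). DDIT4 and CHAC1 thus had 3 separate groups in the order seen for EGR1.

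DDIT3, which encodes CHOP, was at 9.73 and 10.5 CPM in control, 20.3 and 20.2 CPM in SS, and 19.7 and 24.1 CPM in SS+NAC. Its level was higher than control in SS (log2 fold change 0.996, SE 0.12, edgeR adjusted p = 0.00029) and in SS+NAC (2.16-fold, SE of the log2 fold change 0.12, adjusted p = 0.000803). The treated groups of DDIT3 overlapped in CPM, and it was called lower in SS than in SS+NAC only with the length offset (log2 fold change −0.55, edgeR adjusted p = 0.0159, against −0.11 and 0.436 without it). SESN2, which restrains mTOR, was at 27.5 and 30.6 CPM in control, 30.9 and 31.2 CPM in SS, and 91.3 and 85.2 CPM in SS+NAC (SS+NAC over control log2 fold change 1.60, SE 0.08, edgeR adjusted p = 2.36e-06). VLDLR, a lipoprotein receptor, was at 6.78 and 6.42 CPM in control, 5.01 and 4.52 CPM in SS, and 11.6 and 12 CPM in SS+NAC (SS+NAC over SS log2 fold change 1.31, SE 0.13, adjusted p = 0.000164). The lower level of VLDLR in SS than in control (log2 fold change −0.47, edgeR adjusted p = 0.0221) was not called with the length offset (0.304), by DESeq2 (0.0976), or without control replicate 1 (0.119), control replicate 2 (0.089) or SS replicate 2 (0.121).

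**Figure D4:**
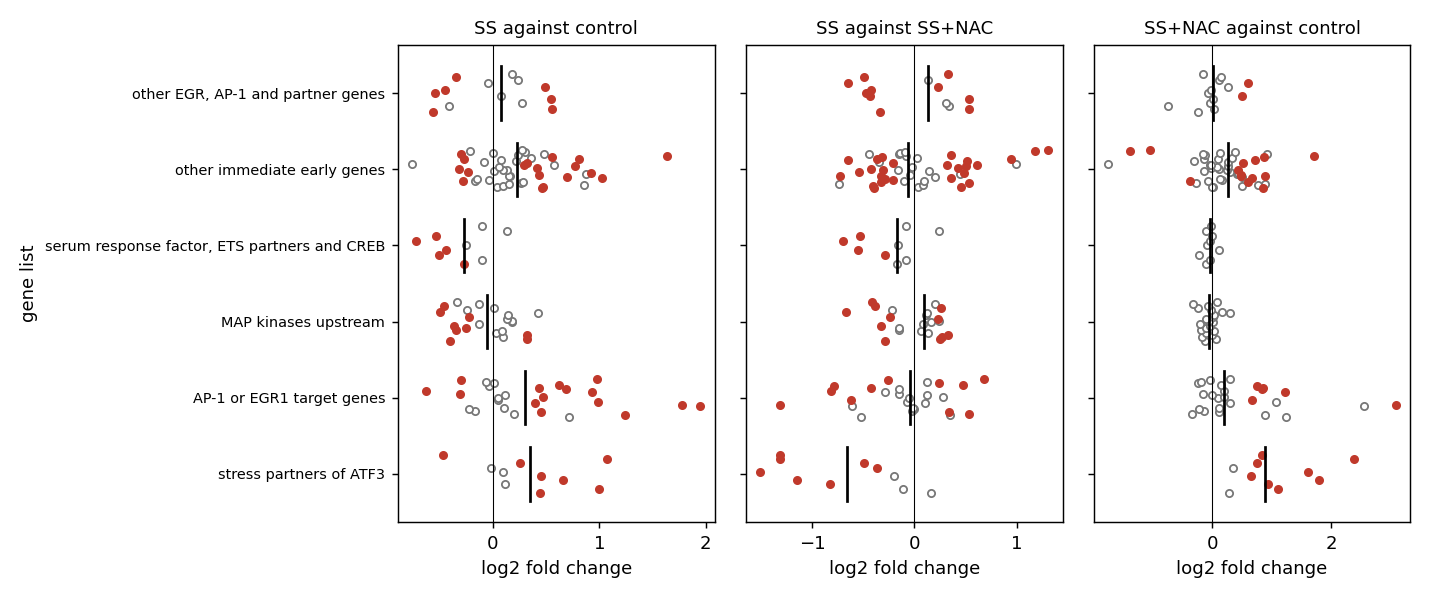
Log2 fold change of each tested gene of the 6 lists by role in each comparison, with filled red points for genes called by edgeR, open points for the others and a vertical line at each list's median. The genes of the ATF4 and ATF3 stress list have medians of 0.35, −0.66 and 0.89 in SS against control, SS against SS+NAC and SS+NAC against control.

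Genes whose levels ran most like those of the EGR and AP-1 genes were sought over the 6 libraries, among 773 tested genes that varied at least as much (SD of log2 CPM of 0.52 or more). The profile, a mean of the centred log2 CPM of the 8 genes, was −0.61 and −0.66 in control, 0.17 and −0.05 in SS, and 0.55 and 0.60 in SS+NAC. The closest 5 by Pearson r were TMEM140 (0.992), DDIT4 (0.984), ADGRG3 (0.980), CXCL2 (0.974) and HIST2H2BE (0.973), given with no p, since the libraries fall into 3 groups of 2.

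TMEM140 was at 0 and 0 CPM in control, 0.349 and 0.228 CPM in SS, and 1.24 and 0.872 CPM in SS+NAC. It passed the filter only through the treated groups, and with control at 0 no fold is given. CXCL2, a chemokine, was at 13.8 and 11.1 CPM in control, 45.5 and 22.9 CPM in SS, and 55.7 and 94.9 CPM in SS+NAC. HIST2H2BE, a histone gene, was at 3.50 and 4.03 CPM in control, 6.10 and 5.71 CPM in SS, and 11.1 and 11.2 CPM in SS+NAC. The order of the groups in these genes was fixed by how they were chosen.

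The promoter windows printed above come from a search of 3 motifs on both strands, chosen after the sequences had been read, in the 150 bases before each RefSeq start. Of the 10 genes 8 had an entry, with 11 starts in all, and FOSL1 and EGR3 had none. A CArG box was found in 2 of the 11 windows (of EGR1 and EGR2), or 18.2%, and in 0.769% of 35116 promoters of the same length. TGACG was found in 7 of the 11 (63.6%), 1 for each gene but ATF3, and in 15.4% of promoters. TATAAA was found in 3 of the 11 (27.3%), of FOS, FOSB and JUNB, and in 6.71% of promoters.

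Among the 15945 promoters of tested genes the shares were 0.746% for the CArG box, 20.0% for TGACG and 3.61% for TATAAA. FOS has TGACG at −64 to −60 and TATAAA at −33 to −28, JUN has TGACG at −123 to −119, and IER2 has TGACG on the other strand at −140 to −136. Not every window lies outside its gene in GENCODE. All 150 bases of the JUN window, 54 of the FOS window and 73 of 1 ATF3 window lie in exons of the same gene. The EGR2 windows and the other ATF3 window lie inside the gene span but outside its exons. A match describes the letters of a window and draws nothing about which factor acted there.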

How the data were processed

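Per the submitters' notes, reads were filtered with SOAPnuke and mapped with HISAT2 2.0.4 and Bowtie2 2.2.5, and the authors computed expected counts, FPKM and TPM for each library with RSEM 1.2.12. The deposited expected counts, rounded to whole numbers, were the base of each test. The deposited TPM served to compare levels between genes, and effective lengths were computed from the deposited counts and FPKM. The table's 9 columns of group means and 9 columns of the authors' comparisons (log2 fold changes, and p-values and q-values of DESeq2) were not used.

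Genes were filtered with filterByExpr, scaled by TMM and tested with edgeR 4.0.16 (quasi-likelihood, Benjamini-Hochberg over all genes tested, limit 0.05) in R 4.3.3. CPM were scaled by TMM, and log2 CPM used a prior count of 2. The length offset is a lowess curve (span 0.3) of each library's log2 CPM deviation on log effective length. The steps were tested on simulated data. Alternatives were DESeq2 1.42.0 (size factors, Wald test), other filters, compared libraries only, a replicate block, Bonferroni adjustment and leaving out each library.

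The 10 genes and all lists were chosen with earlier results of these data known. From each list, up to 4 called genes per comparison with the largest change are named, if either compared group averages 1 CPM or more, besides NAB1, NAB2, SRF and MAPK3. 1 more gene of that rule is not reported. In all, 5 list genes (MMP10, SPRR1B, TSHR and HBB among them) were not in the table and were not analysed here, and CCN1 and CCN2 were found by the older symbols CYR61 and CTGF. Gene positions are from GENCODE release 29 and promoters from RefSeq GRCh38.p14. The labels do not say how the 2 libraries of a group were grown.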

Additional observations from a re-analysis of the deposited data

How the results depend on the processing

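The log2 fold changes of the 8 genes that passed the filter gave 24 results. Under the alternatives 312 values moved by less than the spread between replicates and 24 moved further. That spread comes from the same libraries, so leaving out 1 of them can hardly move a value beyond it. These counts are therefore not read as robustness. For FOSL1, the length offset gave −0.25 (−0.251 with the replicate block) in SS against control and −0.172 (−0.168) in SS against SS+NAC, and for JUN 0.427 (0.425) and −0.045 (−0.046). JUNB in SS against control was at 0.729 with the offset (0.730 with the replicate block too). IER2 was at 0.031 (0.030) in SS against control and −0.586 (−0.585) in SS against SS+NAC, and at 0.228 in SS against control with at least 10 counts in each library.

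Leaving out each library in turn gave log2 fold changes in SS against control of 0.912 to 1.381 for EGR1, 0.253 to 0.665 for FOSB, 0.728 to 1.135 for JUNB and 0.172 to 0.219 for IER2. For SS against SS+NAC it gave −2.443 to −1.974 for EGR1 and −0.836 to −0.424 for FOSB, and in SS+NAC against control −0.271 to 0.127 for FOSL1, 0.803 to 1.233 for JUNB and 0.567 to 0.698 for IER2.

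For SS against control 5609 genes were called, 1292 with the length offset, 851 with the offset and the replicate block, 220 by Bonferroni, and 3118 to 6579 with a library left out. Bonferroni called 0 of the 10 genes, against 5 by edgeR's Benjamini-Hochberg limit, 7 at an unadjusted p under 0.05 and 5 by DESeq2. The offset, then the offset with the replicate block, called 4 and 2 of the other EGR, AP-1 and partner genes, 10 and 8 of the other immediate early genes, 1 and 0 of the SRF list, 2 and 1 MAP kinases, 5 and 4 targets, and 3 and 2 stress genes. With a library left out, 10 to 26 other immediate early genes, 4 to 9 MAP kinases and 7 to 17 targets were called.

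For SS against SS+NAC 5985 genes were called, 2019 with the offset, 1366 with the offset and the replicate block, 191 by Bonferroni, and 3250 to 6339 with a library left out. Of the 10 genes 2 were called by DESeq2's Wald test, 1 by Bonferroni and 2 to 6 with a library left out. The offset, then the offset with the replicate block, called 6 and 3 of the partner genes, 0 and 0 of the SRF list by edgeR (0 at an unadjusted p under 0.05 with the offset, 4 by DESeq2) and 2 and 1 MAP kinases (6 with the replicate block alone). The offset with the block called 17 other immediate early genes and 7 targets. With a library left out, 15 to 28 other immediate early genes, 1 to 14 MAP kinases and 7 to 13 targets were called.

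In SS+NAC against control 282 genes were called, 211 with the replicate block, 40 by Bonferroni, and 98 to 1086 with a library left out. Bonferroni called 3 of the 10 genes. With a library left out, 1 to 2 partner genes, 4 to 18 other immediate early genes, 0 to 2 MAP kinases and 2 to 10 targets were called by edgeR, the 0 with 3 at an unadjusted p under 0.05 and 0 by DESeq2 in all libraries. The cause of these differences was not tested.

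Of the values of named list genes under the alternatives, 880 kept their direction and side of the limit, 122 kept the direction only and 5 turned, over 72 results. ELK4 in SS against control turned to 0.097 with the length offset and 0.097 with the replicate block added, and RPS6KA3 in SS against SS+NAC to 0.023 and 0.026. MAPK3 in SS+NAC against control ran from −0.013 to 0.135 with a library left out. The cause was not tested.

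With 2 libraries a group, a fit that leaves out 1 assumes that the lone library varies like those of the other groups. The replicate block pairs libraries by number, which no label supports, and the residuals of paired libraries correlated at 0.11, −0.11 and −0.17. The common biological coefficient of variation was 6.74%, the spread of libraries of 1 cell line. EGR2 and EGR3 had few counts, and neither was called in any comparison by DESeq2 or by edgeR without the filter on low counts.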
